A study of Mus musculus and Sus scrofa with 18 samples.

Results

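Endocannabinoids are lipid messengers that neurons make on demand from membrane phospholipids. They travel backwards across the synapse to the CB1 receptor, which couples to inhibitory G proteins and lowers transmitter release. One of them, 2-arachidonoylglycerol, is made by diacylglycerol lipases and broken down by monoacylglycerol lipase and ABHD6. The other, anandamide, is released by NAPE-PLD and other routes and is hydrolysed by FAAH. In the striatum, CB1 is made by projection neurons and by some interneurons, and its loss from the basal ganglia is among the early changes described in Huntington's disease (HD).

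The 7 genes described here encode the CB1 receptor (Cnr1) and 6 enzymes of this system, which are Dagla, Daglb, Mgll, Napepld, Faah and Abhd6. They were chosen by name from the 55357 genes of the mouse counts, and each was matched to a single Ensembl gene. All 7 were among the 19463 genes kept for testing. Their RNA was counted in the striatum of 9 mice, with 3 animals in each group and 1 library from each animal. HD 140Q-KI mice are heterozygous knock-ins, in which exon 1 of 1 mouse Htt allele is human and bears a long CAG tract. All mice received AAV9 vectors in both striata at 6 months of age, and tissue was taken 1.5 months later. WT mice were given AAV-Ctrl gRNA without CasRx, an RNA-cutting Cas13 enzyme. Untreated HD mice were given AAV-CasRx/Ctrl gRNA, and treated HD mice AAV-CasRx/HTT gRNAs. CasRx was driven by the CAG promoter, which is active in many cell types, and the guides by U6 promoters. Both HD groups thus carry the knock-in allele and CasRx whereas the WT group carries neither, so the allele and the vector cannot be told apart in a comparison with WT.

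The libraries held between 27184356 and 32102121 counts, and no 2 were identical. Values are CPM, each count as a share of its library's total after adjustment by edgeR's TMM factors, in units of 1000000 counts, and a gene was called where edgeR's quasi-likelihood test gave a Benjamini-Hochberg adjusted p under 0.05 over all tested genes. Htt, the targeted gene, lay at 182 to 191 CPM in the WT group, 140 to 150 CPM in the untreated group and 131 to 140 CPM in the treated group. The difference between treated and untreated mice was −0.10 on the log2 scale (adjusted p = 0.942). This count pools the RNA of both Htt alleles, whereas the guides were designed against the human exon of the knock-in allele. With assays of the mutant form, the paper reports less HTT RNA by RT-qPCR and less protein on Western blots after treatment. The RNA of the mutant allele alone was not tested here. Y-linked genes were counted in the 3 WT mice and in untreated replicate 1 and had 0 counts in the other 5 mice, so that WT and treated mice cannot be compared within one sex. In bulk tissue, fewer cells of a type and less RNA per cell cannot be told apart. The defining markers of striatal projection neurons were present in every library. Their summed level was 7433 to 9793 CPM in WT, 2449 to 2886 CPM in untreated and 3750 to 3818 CPM in treated mice.

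Compared with WT, Cnr1 fell and Faah rose in untreated HD mice, and these 2 of the 7 genes were called, where 10.7% of all tested genes were (4.58% higher and 6.10% lower). In treated HD mice, 1 of 7 was called against WT, again Cnr1, where 3.69% of all tested genes were (0.904% higher and 2.78% lower). Between treated and untreated mice 0 of 7 passed edgeR's test, beside 0% of all tested genes. In that comparison 0 of 7 members had an unadjusted P under 0.05 by edgeR, beside 5.50% of all tested genes. DESeq2 called 48 genes there and none of the 7. At that unadjusted threshold 4 of 7 members passed in untreated and 3 of 7 in treated mice against WT, beside 28.6% and 21.4% of all tested genes. An unadjusted P under 0.05 with at least a 2-fold change was met by 1 of 7 in untreated mice against WT (Faah) and by 0 of 7 in both other comparisons, beside 8.16%, 5.22% and 0.771% of all tested genes. With P under 0.01, the members' counts were again 1, 0 and 0 of 7, beside 4.86%, 2.78% and 0.170% of all tested genes. Without TMM factors, 1147 of the 2069 genes called in untreated against WT mice were higher, compared with 892 of 2080 with them. The median log2 fold change of the 7 genes was 0.27 in untreated against WT mice, 0.08 in treated against WT mice and −0.12 in treated against untreated mice. Over all tested genes the medians were 0.02, 0.00 and −0.01.

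**Figure D1:**
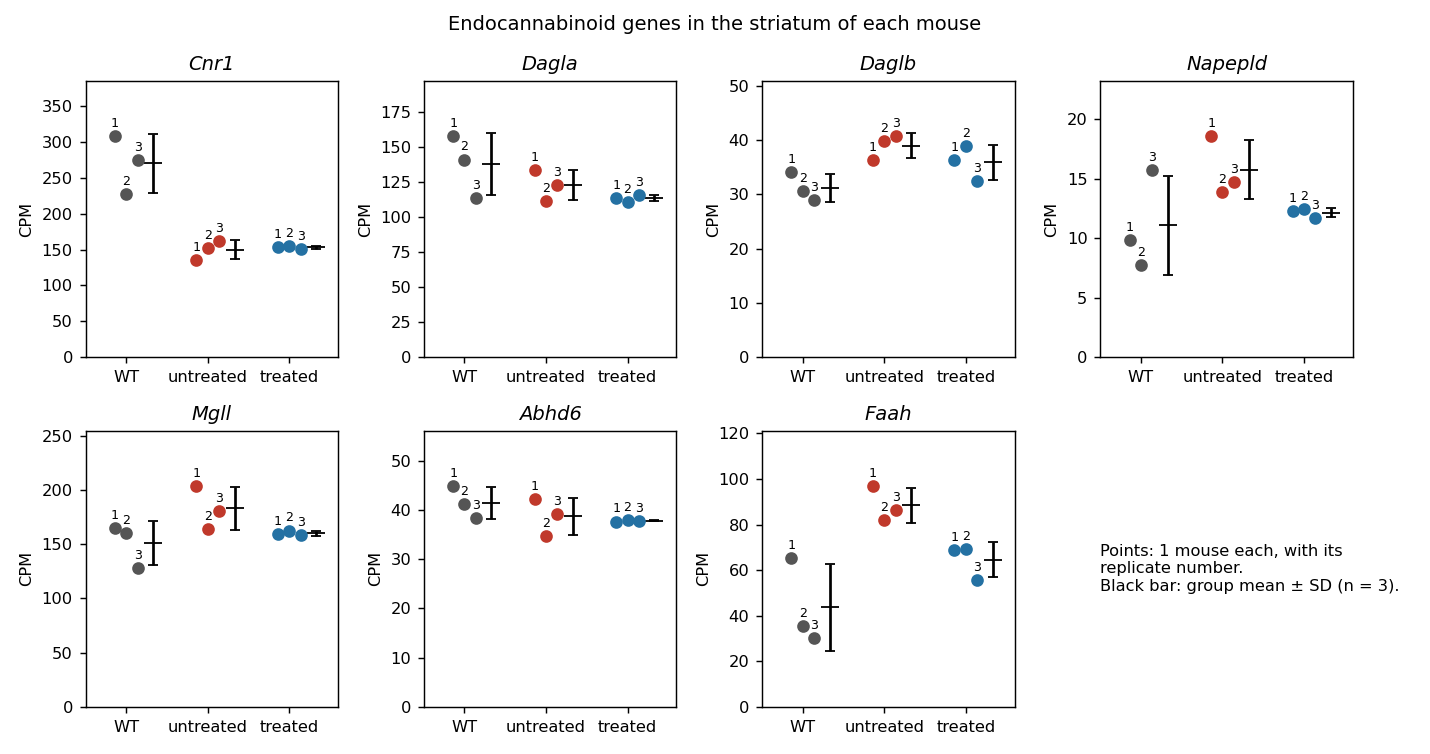
Level in CPM (y axis of each panel) of the 7 endocannabinoid genes in each of the 9 mice, with 1 numbered point per mouse and a bar for the mean ± SD of each group (WT, untreated HD and treated HD, n = 3 each). For Cnr1 all 6 HD mice lie below the 3 WT mice, and for Faah the 3 untreated mice lie above all other mice.

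**Figure D2:**
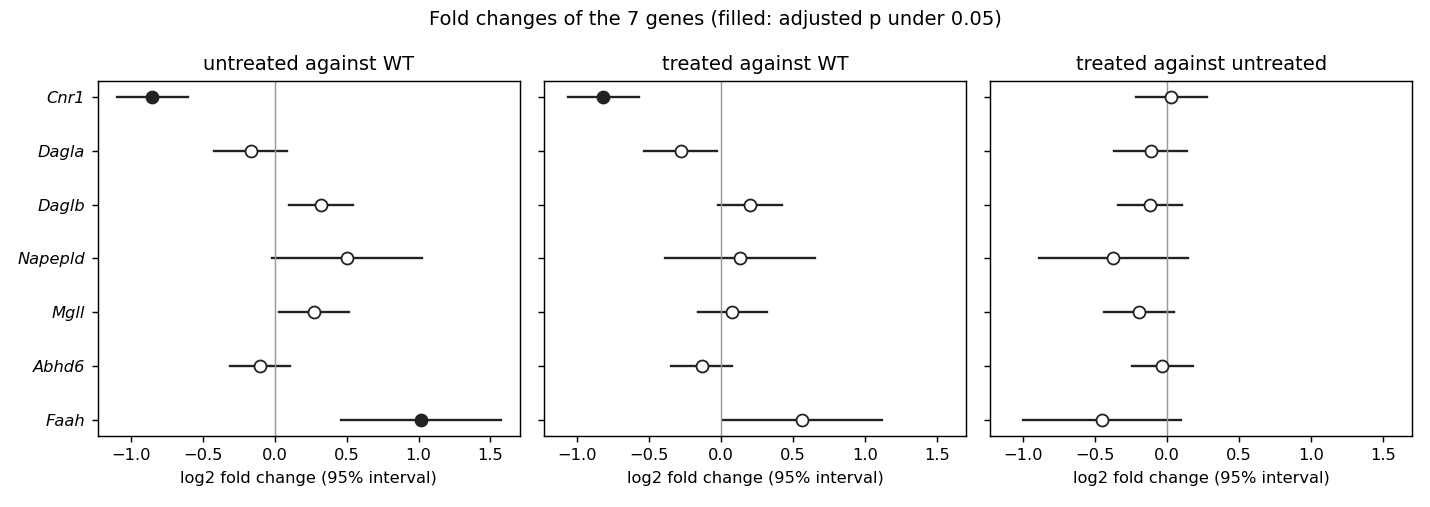
Log2 fold change (x axis) of each of the 7 genes in the 3 comparisons, with 95% confidence intervals from the edgeR fit of all 9 libraries. The Cnr1 intervals lie below 0 in both comparisons with WT and span 0 between treated and untreated mice.

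Cnr1 (ENSMUSG00000044288, chromosome 4) encodes the CB1 receptor. The count came to 308, 227 and 275 CPM in the WT mice. It came to 136, 152 and 163 CPM in the untreated mice. In the treated mice it came to 154, 155 and 151 CPM. Every HD mouse was below every WT mouse, and the treated values lay inside the range of the untreated ones. The means were 270.1 ± 40.6 CPM in WT, 150 ± 13.5 CPM in untreated and 153 ± 1.84 CPM in treated mice (SD, n = 3 each). The log2 fold change was −0.85 in untreated against WT mice (SE 0.11, 95% interval −1.10 to −0.60, adjusted p = 0.00238). In treated against WT mice it was −0.82 (SE 0.11, 95% interval −1.06 to −0.57, adjusted p = 0.00531). Treated and untreated mice differed by 0.03 on the log2 scale, with an interval from −0.22 to 0.28 (adjusted p = 0.996). Both comparisons with WT were called with each of the 9 mice left out in turn, at log2 fold changes from −0.96 to −0.76 in untreated and from −0.92 to −0.72 in treated mice.

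With a term for Y-linked counts in the fit, the call against WT was kept in untreated mice (−0.99, adjusted p = 0.0301) and lost in treated mice (−1.03, adjusted p = 0.184). That term rests on the untreated group, the only one that holds both kinds of mice. In it the mouse with Y-linked counts had 136 CPM of Cnr1 and the 2 without had 152 and 163 CPM.

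Markers of projection neurons also fell against WT. All 16 such markers had log2 fold changes below 0 in both HD groups, with medians of −1.84 in untreated and −1.09 in treated mice. Of the 16, 15 were called lower in untreated and 11 in treated mice, beside 6.10% and 2.78% of all tested genes. Between treated and untreated mice 0 of 16 were called, but the value was above 0 for all 16, with a median of 0.60. The Cnr1 value in that comparison was 0.03. Within each group, the mouse with the highest Cnr1 had the lowest mean log2 CPM of these markers. The difference between Cnr1 and the mean of these markers, in log2 CPM, was 0.41, −0.38 and −0.27 in the WT mice. In the untreated mice the difference was 0.63, 0.53 and 0.90, and in the treated mice 0.13, 0.18 and 0.05. The markers fell more than Cnr1 in the untreated mice, which raises this difference there. The part of the markers in the level of Cnr1 was not tested.

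The sequences just before the start of Cnr1 and Faah are shown because these were the 2 genes called. They are RefSeq sequence from GRCm38.p6, and capitals mark the GC box (GGGCGG, or CCGCCC on the other strand), a short motif bound by Sp-family factors. The Cnr1 window, before the most upstream of its 3 listed starts, is chr4:33924014-33924263 on the plus strand, and the Faah window is chr4:116017925-116018174 on the minus strand.
Cnr1: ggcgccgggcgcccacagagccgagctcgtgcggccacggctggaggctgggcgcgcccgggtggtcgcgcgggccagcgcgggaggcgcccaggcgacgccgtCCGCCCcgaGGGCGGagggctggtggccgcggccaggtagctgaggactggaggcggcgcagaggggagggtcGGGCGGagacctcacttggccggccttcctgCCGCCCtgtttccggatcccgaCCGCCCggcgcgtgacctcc
Faah: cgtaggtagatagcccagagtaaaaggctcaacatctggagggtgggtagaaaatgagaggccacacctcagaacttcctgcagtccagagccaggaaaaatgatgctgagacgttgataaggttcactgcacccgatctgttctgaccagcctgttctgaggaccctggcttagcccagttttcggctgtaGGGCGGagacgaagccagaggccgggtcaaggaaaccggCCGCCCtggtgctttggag
The bases after the Cnr1 start shown were found in 0 Cnr1 transcripts of GENCODE M21, and those after the other 2 Cnr1 starts in 2 and 1. The Cnr1 window held 5 GC boxes and 36 CpG dinucleotides at 79.2% G+C, and the other 2 Cnr1 windows held 0 GC boxes. The Faah window held 2 GC boxes and 9 CpG dinucleotides at 55.6% G+C. RefSeq windows matched 6 of the 7 genes, with 10 windows in all, since Cnr1 has 3 and Mgll and Abhd6 have 2 each. A GC box was in 4 of the 10, and in 32.7% of 32851 windows of 250 bases before mouse gene starts. The letters TATAAA and TGACG, searched on both strands, were in 0 of the 10 windows, and in 12.4% and 17.8% of all windows. CACGTG, an E-box, was in 2 of the 10 windows and in 6.02% of all. These matches describe the sequence and were not set against the fold changes.

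The enzymes that make 2-arachidonoylglycerol did not pass the test. Dagla (ENSMUSG00000035735, chromosome 19) encodes the main neuronal diacylglycerol lipase, which sits opposite CB1-bearing terminals. It had 158, 141 and 114 CPM in the WT mice, 134, 112 and 123 CPM in the untreated mice and 114, 111 and 115 CPM in the treated mice. The 3 groups overlapped. Treated replicate 1 was level with the lowest WT mouse, and treated replicate 2 was below it. The log2 fold change against WT was −0.16 in untreated (SE 0.11, adjusted p = 0.374) and −0.28 in treated mice (SE 0.11, adjusted p = 0.195). Without WT replicate 3, the lowest of that group, the value in treated mice was −0.39 and passed the threshold (adjusted p = 0.0483). Between treated and untreated mice it was −0.11 (95% interval −0.37 to 0.14, adjusted p = 0.995).

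Daglb (ENSMUSG00000039206, chromosome 5) encodes the second diacylglycerol lipase, which is better known from microglia and other cells outside neurons. Its counts came to 34.0, 30.5 and 29.0 CPM in WT, 36.3, 39.7 and 40.7 CPM in untreated and 36.4, 38.9 and 32.5 CPM in treated mice. All untreated mice were above all WT mice, and the treated mice overlapped both. The log2 fold change in untreated against WT mice was 0.32 (SE 0.10, 95% interval 0.10 to 0.54, adjusted p = 0.0695). It passed the threshold without TMM factors (0.37, adjusted p = 0.0489) and in DESeq2 (0.32, adjusted p = 0.0230). In treated mice it was 0.20 against WT (adjusted p = 0.273) and −0.12 against untreated mice (adjusted p = 0.995). The 3′ end of Daglb overlaps Rac1, a small GTPase gene on the opposite strand with up to 8494 counts in a library. The sources used here do not say whether reads were counted by strand, so reads of the 2 genes may not be told apart and the Daglb values are uncertain.

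Napepld (ENSMUSG00000044968, chromosome 5) encodes the phospholipase that releases anandamide from its precursor. It had the lowest counts of the 7 genes. The WT mice had 9.82, 7.71 and 15.7 CPM, the untreated mice 18.6, 13.9 and 14.7 CPM and the treated mice 12.3, 12.5 and 11.7 CPM. WT replicate 3 lay inside the untreated range, whereas all treated mice were below all untreated mice. The log2 fold change was 0.51 in untreated against WT mice (SE 0.23, 95% interval −0.02 to 1.03, adjusted p = 0.187). It rested on single WT mice, as it was 0.85 without replicate 3 (adjusted p = 0.0261) and 0.30 without replicate 2 (adjusted p = 0.429). Treated mice differed from WT by 0.13 (adjusted p = 0.788) and from untreated mice by −0.37 (SE 0.23, adjusted p = 0.948).

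Of the enzymes that end the signal, Faah rose in untreated mice, and Mgll and Abhd6 did not pass the test in any comparison. Faah (ENSMUSG00000034171, chromosome 4), whose promoter is given above, encodes the membrane hydrolase that breaks down anandamide. It had 65.5, 35.5 and 30.2 CPM in the WT mice. The untreated mice had 97.0, 81.9 and 86.5 CPM and the treated mice 68.7, 69.4 and 55.8 CPM. All untreated mice were above all WT and all treated mice, and WT replicate 1 lay within the treated range. The group means were 43.7 ± 19.1 CPM in WT, 88.5 ± 7.71 CPM in untreated and 64.6 ± 7.67 CPM in treated mice (SD, n = 3 each). In untreated against WT mice the log2 fold change was 1.02, a 2.02-fold rise (SE 0.25, 95% interval 0.46 to 1.57, adjusted p = 0.0327).

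This call was close to the threshold. It was lost without filtering of low counts (adjusted p = 0.0672), in a fit of the 2 groups alone (adjusted p = 0.0814) and with the term for Y-linked counts (1.15, adjusted p = 0.156). It was also lost without any 1 of 7 mice, namely WT replicates 2 and 3, the 3 untreated mice and treated replicates 1 and 2, with log2 fold changes from 0.81 to 1.07 and adjusted p up to 0.106. Without WT replicate 1 the log2 fold change was 1.42 (adjusted p = 0.000417). In treated against WT mice it was 0.57 (SE 0.25, adjusted p = 0.224), and without WT replicate 1 it was 0.97 and was called (adjusted p = 0.00566), whereas without WT replicate 3 it was 0.37 (adjusted p = 0.356). Treated mice differed from untreated mice by −0.45 (SE 0.24, 95% interval −1.0 to 0.09, adjusted p = 0.918).

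Markers of cortical excitatory neurons, which are not striatal cells, moved with Faah. Their summed level was 970 CPM in WT replicate 1, 417 and 239 CPM in the other 2 WT mice, 1103 to 1330 CPM in untreated and 763 to 828 CPM in treated mice. None of the 8 markers was at 0 in any library, and Slc17a7, the vesicular glutamate transporter of these cells, ranged from 165 to 963 CPM. Against WT, 2 of the 8 were called higher in untreated mice (Neurod2 and Cux2) and 0 of 8 in treated mice, and the median log2 fold changes were 1.21 and 0.65. The difference between Faah and the mean of these markers was 0.42, 0.88 and 1.52 in the WT mice, 0.41, 0.58 and 0.50 in the untreated mice and 0.75, 0.73 and 0.44 in the treated mice, in log2 CPM. The median marker rose more than Faah in the untreated mice, which lowers this difference there. Markers of the choroid plexus, a tissue next to the striatum that makes cerebrospinal fluid, also differed between mice. Their summed level was 64.7, 3731 and 1198 CPM in the WT mice, 183, 46.0 and 33.7 CPM in the untreated mice and 237, 37.7 and 1254 CPM in the treated mice. The 3 mice with the highest levels, WT replicates 2 and 3 and treated replicate 3, had the lowest Faah and the lowest Daglb values of their groups. Of these, WT replicate 2 had more of the markers than WT replicate 3 and also more of both genes. In the untreated group, replicate 1 had the highest choroid plexus level with the highest Faah and the lowest Daglb value. The part of cortical or choroid plexus cells in these levels was not tested.

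**Figure D3:**
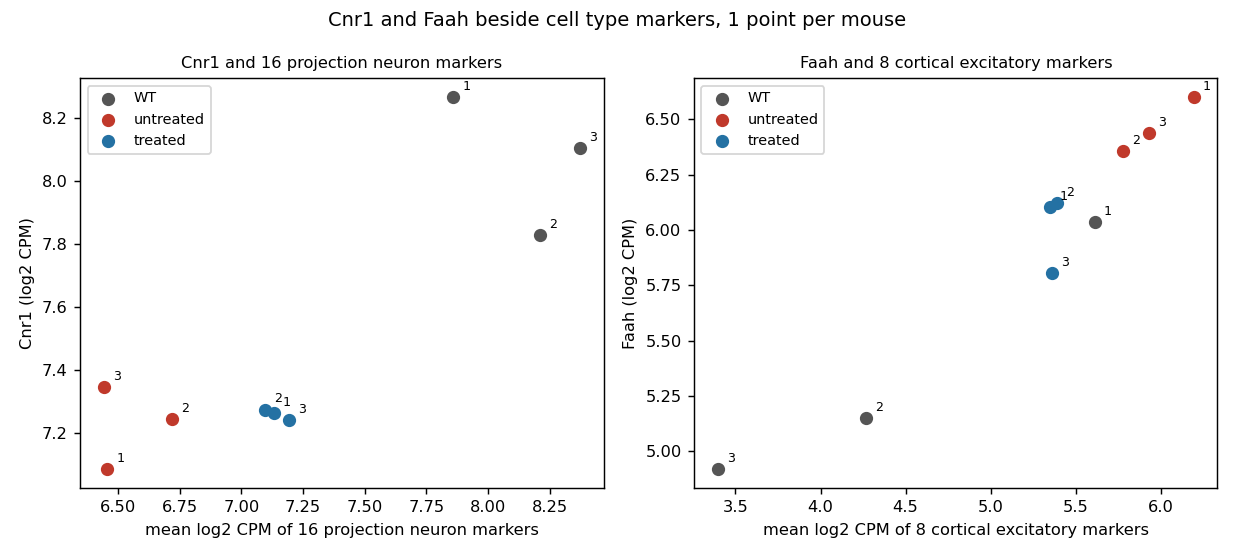
Log2 CPM of Cnr1 against the mean log2 CPM of 16 projection neuron markers, and of Faah against that of 8 cortical excitatory neuron markers, with 1 point per mouse. In the Cnr1 panel the WT mice lie apart from both HD groups, and in the Faah panel WT replicate 1, at 65.5 CPM, lies beside the treated mice and far from the other 2 WT mice.

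Mgll (ENSMUSG00000033174, chromosome 6) encodes monoacylglycerol lipase, the main enzyme that clears 2-arachidonoylglycerol. The WT mice had 165, 160.4 and 128 CPM, the untreated mice 204, 164 and 181 CPM and the treated mice 159, 163 and 158 CPM. The untreated mice overlapped WT by a single animal, and all treated mice were below all untreated mice. The log2 fold change was 0.27 in untreated against WT mice (SE 0.11, 95% interval 0.03 to 0.52, adjusted p = 0.128). It was 0.08 in treated against WT mice (adjusted p = 0.714) and −0.19 in treated against untreated mice (95% interval −0.43 to 0.05, adjusted p = 0.923). Abhd6 (ENSMUSG00000025277, chromosome 14) encodes a further lipase that clears 2-arachidonoylglycerol on the receiving side of the synapse. It had 44.9, 41.2 and 38.4 CPM in WT, 42.3, 34.7 and 39.1 CPM in untreated and 37.7, 37.9 and 37.9 CPM in treated mice. Abhd6 moved least of the 7 genes against WT in untreated mice, with a log2 fold change of −0.10 (95% interval −0.31 to 0.11, adjusted p = 0.527). In treated mice all 3 values were below WT, by −0.13 on the log2 scale (adjusted p = 0.451).

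Counted by mouse, 1 gene was lower (Cnr1) and 2 were higher (Daglb and Faah) in every untreated mouse than in every WT mouse, against 15.1% and 15.0% of all tested genes in those directions. Between treated and WT mice, 2 genes were lower without overlap (Cnr1 and Abhd6), against 15.1% of tested genes, and 0 were higher, against 13.4%. Between treated and untreated mice, 3 genes were lower without overlap (Mgll, Napepld and Faah), against 8.83% of tested genes, and 0 were higher, against 6.92%. The adjusted p of these 3 genes lay between 0.918 and 0.948. The 3 comparisons share their groups pairwise, so these counts do not stand apart from each other.

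The RNA of making and clearing enzymes was set side by side as a ratio of counts within each library, which does not measure enzyme activity. Dagla over Mgll, the main pair for 2-arachidonoylglycerol, was 0.955, 0.880 and 0.889 in the WT mice. It was 0.656, 0.681 and 0.680 in the untreated mice and 0.717, 0.683 and 0.730 in the treated mice. All 6 HD mice were thus below all WT mice, although neither gene was called alone. How often ratios of other genes separate in this way was not counted. Of single genes, 15.1% were lower without overlap in untreated and 15.1% in treated mice against WT. Mgll was highest in the untreated group, in which the cortical markers given above were also highest. The summed level of 10 interneuron markers was 419 to 545 CPM in WT, 540 to 587 CPM in untreated and 446 to 453 CPM in treated mice. The single markers were mixed. In untreated against WT mice 5 of the 10 had a log2 fold change above 0, and the 2 that were called (Chat and Nos1) were lower. The part of cortical neurons or interneurons in Mgll or in the ratio was not tested. Napepld over Faah, for anandamide, was 0.150, 0.217 and 0.520 in the WT mice, 0.191, 0.170 and 0.170 in the untreated mice and 0.178, 0.179 and 0.210 in the treated mice, and the groups overlapped. These ratios were not tested.

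In the WT and untreated groups, several of the enzymes shared an order between mice. Dagla, Mgll, Faah and Abhd6 each had the highest WT value in replicate 1 and the lowest in replicate 3. Each of these also had the highest untreated value in replicate 1 and the lowest in replicate 2. Daglb did not share this order, since its lowest untreated value was in replicate 1. In treated replicate 2, Dagla was lowest where Mgll, Faah and Abhd6 were highest. Cnr1 had its lowest values in WT replicate 2 and untreated replicate 1. In the treated group the spread was small for Cnr1, Dagla, Mgll and Abhd6. Their coefficients of variation were 1.20%, 2.01%, 1.44% and 0.327% in that order, against 15.0%, 16.1%, 13.3% and 7.89% in WT. Napepld and Faah were at 3.10% and 11.9% in treated mice, against 37.3% and 43.6% in WT. Daglb went the other way, with a slightly larger coefficient in treated than in WT mice. How common so small a spread is among all tested genes was not counted, so it cannot be read as a trait of these genes.

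Among 12400 genes with a mean of at least 5 CPM, the 5 whose pattern over the 9 libraries was closest to Cnr1 were Hey1 (r = 0.98), Cnbp (r = 0.98), Atraid (r = 0.97), Kpnb1 (r = 0.97) and Ccnd2 (r = 0.97). Hey1 is a transcriptional repressor downstream of Notch, and Ccnd2 is a cyclin. The closest to Faah were Gng3 (r = 0.99), a neuronal G protein subunit, BC030499 (r = 0.99) and Stmn1 (r = 0.99), a regulator of microtubules. Mgll was closest to Tuba8 (r = 0.98), Ccdc124 (r = 0.97) and Mast2 (r = 0.97). Dagla was closest to Tmem121b (r = 0.97), Inka2 (r = 0.95) and Prrt3 (r = 0.95), and Daglb to Manba, Gm37422 and St3gal6, at r from 0.96 to 0.97. Napepld was closest to Kdsr (r = 0.97), Siah1a (r = 0.96) and Zfr (r = 0.94). Abhd6 was closest to Abt1 (r = 0.92), Dagla (r = 0.92) and Syt12 (r = 0.91), so that the closest genes of Abhd6 include another of the 7.

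Of 34 other genes of the system, 30 were tested, and Gpr18, Gpr119, Trpv1 and Plaat5 were too low. Against WT, 6 were called in untreated mice, with 2 higher and 4 lower, beside 10.7% of all tested genes, and 2 in treated mice, both lower, beside 3.69%. Between treated and untreated mice 0 of 30 were called by edgeR, with 2 at an unadjusted P under 0.05, beside 5.50% of all tested genes. The medians were 0.04, 0.02 and −0.03 on the log2 scale. The count in untreated mice was 13 in DESeq2, which called 3473 of all 19463 genes in that comparison, where edgeR called 2080. It was 2 without WT replicate 2, and 3 without untreated replicate 2 or 3. The count in treated mice was 7 in DESeq2, which called 1946 of all genes in that comparison, where edgeR called 718. It was 5 without WT replicate 1 or untreated replicate 3, and 1 without WT replicate 2 or any 1 treated mouse. Shares over all genes are not given here for fits with a mouse left out or with the Y-linked term. With the term for Y-linked counts 1 of 30 was called in untreated and 0 of 30 in treated mice, so that the calls of Adcy5 and Chrm1 in treated mice were lost. Of the 30, the lowest value in untreated mice was that of Adcy5, the main adenylyl cyclase of striatal projection neurons, which CB1 inhibits through its G protein. Adcy5 lay between 1083 and 1666 CPM in WT, between 393 and 481 CPM in untreated and between 561 and 611 CPM in treated mice. Adcy5 had a log2 fold change of −1.71 in untreated (SE 0.15, adjusted p = 0.000387) and −1.24 in treated mice (SE 0.15, adjusted p = 0.00382), and 0.47 between them (adjusted p = 0.886). All treated mice were above all untreated mice in Adcy5, which was not so for Cnr1. Gnao1, the most abundant inhibitory G protein subunit of neurons, was 853 to 892 CPM in WT, 697 to 762 CPM in untreated and 754 to 803 CPM in treated mice. It fell by 0.26 on the log2 scale in untreated mice (adjusted p = 0.0484), and in treated mice the value was −0.16 (adjusted p = 0.236).

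Chrm1, the M1 muscarinic receptor, which drives 2-arachidonoylglycerol synthesis through Gq, was 146 to 190.3 CPM in WT, 115 to 135 CPM in untreated and 116 to 120.1 CPM in treated mice. Its log2 fold change was −0.47 in untreated (adjusted p = 0.0245) and −0.56 in treated mice (adjusted p = 0.0225). Gpr55, a receptor for related lipids, was 3.21 to 5.58 CPM in WT, 1.37 to 1.91 CPM in untreated and 1.87 to 2.37 CPM in treated mice, with log2 fold changes of −1.49 (adjusted p = 0.00860) and −1.01 (adjusted p = 0.0570). The projection neuron markers given above fell in the same mice, and their part in these genes was not tested. The 2 genes that rose in untreated mice were of low level. Ptgs2, the cyclooxygenase that also oxidises 2-arachidonoylglycerol, rose by 1.06 on the log2 scale (adjusted p = 0.0196) from 3.39 to 5.33 CPM in WT to between 6.99 and 11.2 CPM. Pla2g4e, a calcium-dependent acyltransferase that makes the precursor of anandamide, rose by 1.84 on the log2 scale (adjusted p = 0.0278) from 1.47 to 4.50 CPM in WT to between 7.26 and 11.2 CPM. In treated mice these 2 were at 5.55 to 6.75 CPM and 3.65 to 8.49 CPM and were not called against WT (adjusted p = 0.243 and 0.145). In WT both were highest in replicate 1, the WT mouse with the highest cortical markers. The HD groups did not share this pattern. Untreated replicate 2 had the lowest summed cortical markers of its group, with the highest Pla2g4e and the lowest Ptgs2. Treated replicate 3 had the lowest summed cortical markers of its group, with the lowest Pla2g4e and the highest Ptgs2. The part of cortical cells in these 2 genes was not tested.

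Cnr2, which encodes the CB2 receptor of immune cells, was not called, and it is given because its values drew attention once seen. Its counts were 2, 3 and 8 in the WT mice, 11, 12 and 48 in the untreated mice and 25, 30 and 33 in the treated mice. All HD mice were above all WT mice, with adjusted p = 0.0580 in untreated and 0.0716 in treated mice by edgeR. Of all tested genes, 15.0% in untreated and 13.4% in treated mice were higher than WT without overlap. The summed level of 8 microglia markers was 329 to 360 CPM in WT, 402 to 988 CPM in untreated and 507 to 663 CPM in treated mice. Of 6 lymphocyte markers tested against WT, 3 were called higher and 1 (Cd4) lower in untreated mice. In treated mice 0 were called higher and 1 (Cd4) lower. The part of microglia or lymphocytes in Cnr2 was not tested.

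**Figure D4:**
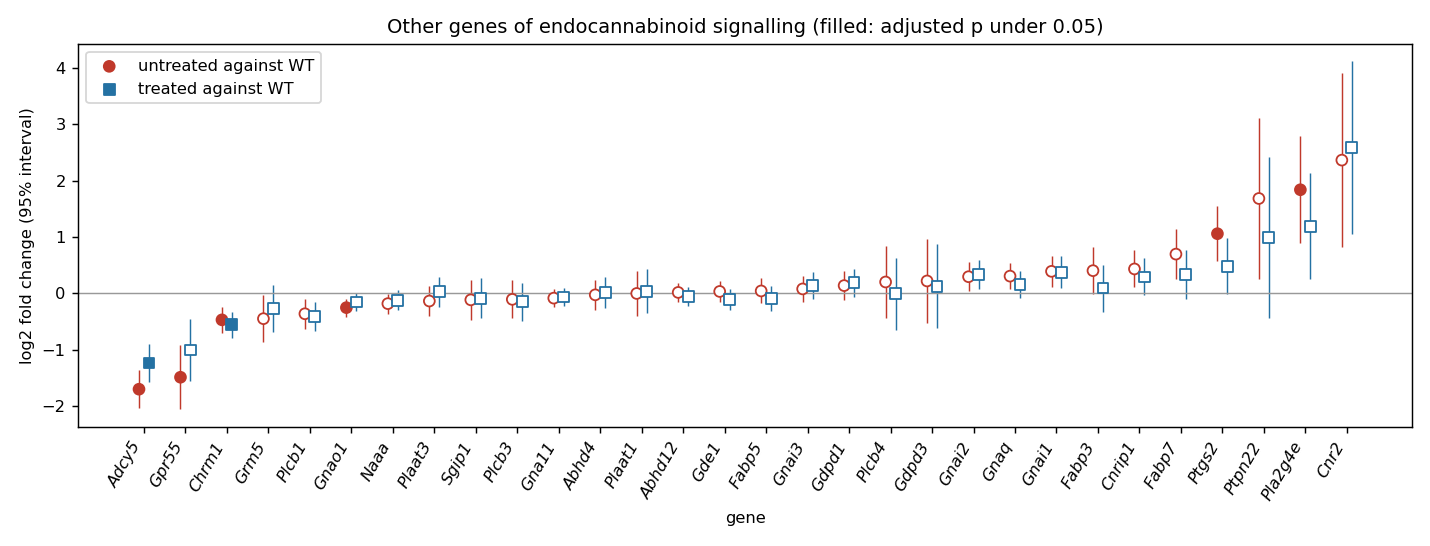
Log2 fold change (y axis, with 95% confidence intervals) of 30 other genes of endocannabinoid signalling (x axis) in untreated and treated HD mice against WT mice, with filled points for called genes. Adcy5 lies farthest below 0 in untreated mice, at −1.71, and Cnr2, with counts of 2 to 8 in WT, has the widest intervals.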

How the data were processed

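Striatal RNA of 9 mice, 3 in each group of 1 library per animal, was sequenced as 3′ mRNA libraries primed with oligo-dT. The values are raw counts per Ensembl gene that the authors deposited, without normalization. The paper names STAR, whereas the submitters' processing notes list Trimmomatic 0.39, FastQC 0.11.9, HISAT2 2.2.1, featureCounts 2.0.1 and the pig build Sscrofa11.1 for every sample. Which tools and which mouse build made these counts, and whether strand was used, is not given in the sources used here. The pig counts of the series were not used.

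The test came from edgeR 4.0.16 (R 4.3.3). Genes were kept by filterByExpr (minimum count 10), libraries were scaled by TMM, and all 9 were fitted together by glmQLFit with 6 residual degrees of freedom and tested by glmQLFTest. P-values were adjusted by Benjamini-Hochberg over the 19463 genes tested, and a call had an adjusted p under 0.05. The study's rule, an unadjusted P under 0.05 (0.01 in its methods) with a 2-fold change, was an alternative, as were DESeq2 1.42.0, other filters and scalings, a fit of only 2 groups, a block on replicate number, a term for Y-linked counts and each mouse left out. Log2 CPM used a prior count of 2. The fit was tested on simulated counts with known changes.

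Total counts ranged from 27184356 to 32102121, and the error of each value is the spread between mice, which includes counting error. Groups came from the sample labels. Replicate numbers were not treated as pairs, as same-numbered mice are different animals and the labels do not say what they share. The correlations of their deviations from the group means ranged from −0.08 to 0.24. The highest were 0.19 and 0.24, between treated and untreated replicates 1 and 3, so a shared factor is not excluded. All 7 members are given in every library. From the pathway list 1 gene was left out and is not reported here. Of the other 34, those called in any comparison are named, as are the 5 genes closest in pattern to Cnr1 and the 3 closest to each other member. The 7 genes and all gene lists were chosen with earlier results of these data known. Gene names and overlaps come from GENCODE M21, which holds 94.1% of the gene IDs, and promoters from RefSeq (GRCm38.p6). Plots used matplotlib 3.10.9 (Python 3.11.15).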

Additional observations from a re-analysis of the deposited data

How the results depend on the processing

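Of the log2 fold changes of the 7 genes in the 3 comparisons, 137 values kept their direction and side of the threshold under an alternative setting. Of the others, 4 lost a call, 2 gained one and 4 changed direction. With a mouse left out, 175 were kept, 7 lost a call, 3 gained one and 4 changed direction. Only Cnr1 in both comparisons with WT and Faah in untreated mice were called to begin with, so most of the kept values stayed uncalled. The count of the 7 genes called in untreated against WT mice was 1 without a filter, with only the 2 groups fitted, with the term for Y-linked counts and under both of the study's rules, 3 without TMM factors and in DESeq2, and 1 to 2 with a mouse left out. In treated against WT mice it was 0 with the Y-linked term and under both of the study's rules, and 1 to 2 with a mouse left out. Over all 19463 genes, DESeq2 called 3473 in untreated and 1946 in treated against WT mice, where edgeR called 2080 and 718. Without TMM factors edgeR called 2069 and 548. The count of pathway genes in untreated against WT mice was 13 in DESeq2, 2 with only the 2 groups fitted and 1 with the Y-linked term, and 2 to 8 with a mouse left out. In treated against WT mice it was 7 in DESeq2, 0 with the Y-linked term, 4 at an unadjusted P under 0.05 with a 2-fold change and 1 to 5 with a mouse left out. With a block on replicate number, which the labels do not tie to anything shared by the mice, that count was 4. The counts of the 7 genes called were the same as without the block. Under the Y-linked term the log2 fold change of Abhd6 turned to 0.029 in untreated and 0.065 in treated against WT mice and to 0.036 between treated and untreated mice, and that of Cnr1 turned to −0.036 between them. With a mouse left out, values in treated against WT mice ranged from −0.017 (without WT replicate 3) to 0.14 for Mgll and from −0.064 (without WT replicate 2) to 0.48 for Napepld. Between treated and untreated mice they ranged from −0.029 (without untreated replicate 1) to 0.093 for Cnr1 and from −0.10 to 0.043 (without untreated replicate 1) for Abhd6. None of these reversed values was called. The cause of these changes was not tested. Counting error and the spread between mice were not separated, and depth is a limit for Cnr2, with 2 to 8 counts in WT mice.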
